A study of Rattus norvegicus with 12 samples.

Results

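The genes described here build and load the MHC class I molecule of the rat, in tumors of C6 cells, a rat glioma line, grown under the skin of nude mice. There were 10 of them, taken from a list of symbols: RT1-A1, RT1-A2, RT1-T24-4, RT1-DMa, B2m, Tap1, Tap2, Tapbp, Psmb8 and Psmb9. They were matched to the probes of Illumina RatRef-12 arrays by the symbol in the platform annotation, and each had 1 probe, detected at a detection p under 0.02 on 12 of 12 arrays. They stood among 7620 genes and unnamed probes tested. The symbol RT1-DMa belongs to the class II pathway and not to class I, and it is counted with the others as the list has it, with the main summaries also given without it.

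The treated tumors came from 6 mice given MNF, (R,R')-4-methoxy-1-naphthylfenoterol, a fenoterol derivative, at 2 mg/kg by intraperitoneal injection in a vehicle of ascorbic acid (100 µM) in saline, and the controls from 6 mice given that vehicle alone. Injections began 3 days after the C6 cells were placed in the flank of athymic female mice (SWISS nu+/nu+) and were given on 5 days of each week over 19 days, as in the methods and sample labels, while a figure legend of the study describes another vehicle and period. Each group held 3 tumors of cohort 2 and 3 of cohort 1, and 1 array was run per tumor. All tumors descend from 1 established cell line, and nude mice lack a thymus and so mature T cells. The RNA of a tumor can hold mouse transcripts from the host, which rat probes may bind in part, and in such bulk samples fewer cells of a type cannot be told apart from less RNA per cell. The study asked which transcripts differed between MNF-treated and vehicle-treated tumors.

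Class I molecules show fragments of a cell's own proteins on its surface to cytotoxic T cells and are read by natural killer cells too. The proteasome cuts the proteins, and in cells exposed to interferon the subunits Psmb8, Psmb9 and Psmb10 take the place of the standard catalytic subunits. Tap1 and Tap2 form the pump that carries the peptides into the endoplasmic reticulum, Tapbp (tapasin) holds the empty class I molecule at that pump, and the heavy chain (RT1-A and its relatives in the rat) leaves with its light chain, B2m, once a peptide is bound. Interferon gamma raises most of these genes together, in part through Irf1 and other factors that bind interferon-type elements, kappa B-type elements and CCAAT boxes near their start sites.

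A window of 250 bases before the start that the RefSeq promoter table uses (build GRCr8) was read for all 10 genes, and 5 of the windows are shown because the class I genes are close copies of each other, because B2m and Tap1 serve every class I molecule, and because Tapbp is the gene that stood apart in the levels. The annotated gene begins at another site in some cases, and 7 of the 10 windows reach into it, by 4 bases in RT1-T24-4 to 151 in RT1-A2. All but B2m, on chromosome 3, lie in the RT1 complex on chromosome 20. Capitals mark matches to the interferon-type motif GAANNGAAA and to the kappa B-type motifs GGGATTCCC and GGGANTTTC on either strand.
RT1-A1, chr20:4906959-4907208, plus strand: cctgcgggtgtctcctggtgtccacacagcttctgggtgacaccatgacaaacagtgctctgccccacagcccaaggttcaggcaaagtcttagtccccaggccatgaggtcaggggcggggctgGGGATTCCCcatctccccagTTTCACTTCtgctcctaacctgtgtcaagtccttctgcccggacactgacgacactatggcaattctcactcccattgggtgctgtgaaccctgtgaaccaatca
RT1-A2, chr20:4872621-4872870, plus strand: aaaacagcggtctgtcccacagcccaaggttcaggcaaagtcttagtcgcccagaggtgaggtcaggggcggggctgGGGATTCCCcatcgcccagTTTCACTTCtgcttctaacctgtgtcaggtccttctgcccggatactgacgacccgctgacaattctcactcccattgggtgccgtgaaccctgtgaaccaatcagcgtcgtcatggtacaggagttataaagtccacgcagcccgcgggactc
B2m, chr3:129549080-129549329, plus strand: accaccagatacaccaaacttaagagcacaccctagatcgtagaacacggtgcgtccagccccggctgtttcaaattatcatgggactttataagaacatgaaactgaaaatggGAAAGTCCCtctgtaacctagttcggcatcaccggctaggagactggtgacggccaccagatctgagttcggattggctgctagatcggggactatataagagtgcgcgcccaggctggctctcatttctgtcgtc
Tap1, chr20:4668544-4668793, minus strand: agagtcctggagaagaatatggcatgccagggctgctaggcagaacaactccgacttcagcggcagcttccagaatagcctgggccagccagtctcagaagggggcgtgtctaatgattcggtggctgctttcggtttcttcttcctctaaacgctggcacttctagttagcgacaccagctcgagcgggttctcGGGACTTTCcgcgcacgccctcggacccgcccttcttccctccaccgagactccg
Tapbp, chr20:4967878-4968127, minus strand: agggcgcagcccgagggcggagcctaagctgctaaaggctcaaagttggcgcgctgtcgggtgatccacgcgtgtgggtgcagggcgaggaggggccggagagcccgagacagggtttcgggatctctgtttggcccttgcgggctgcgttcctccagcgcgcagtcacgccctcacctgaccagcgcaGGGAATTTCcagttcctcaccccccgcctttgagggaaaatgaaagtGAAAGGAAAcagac

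The RT1-A1 and RT1-A2 windows, read on to a little past the table's start, were 92.1% identical over 252 aligned positions, with the RT1-A1 window beginning 48 bases farther upstream in the shared stretch. Both windows held the kappa B-type motif GGGATTCCC beside an interferon-type motif read on the opposite strand, and GGGATTCCC was present in 0.272% of the 33469 windows of this length. The interferon-type motif GAANNGAAA was found in the windows of 4 of the 10 genes (RT1-A1, RT1-A2, Tap2 and Tapbp) and in 7.12% of all windows. Another interferon-type motif, with 1 more A after its first 3 letters and so a wider spacing between its fixed letters, had been searched first. It lay in the windows of B2m, Tap1, Tap2 and Tapbp and in 3.41% of all windows but not in those of RT1-A1 or RT1-A2, and GAANNGAAA was taken up after these sequences had been seen. The second kappa B-type motif, GGGANTTTC, lay in the windows of B2m, Tap1 and Tapbp and in 0.953% of all windows. Tap1 and Psmb9 are transcribed away from each other, with 456 bases between their starts in the promoter table and 44 bases shared by their windows. Of the 10 motifs searched on both strands, CCAAT was found in the windows of 5 of the genes (34% of all windows), TGACG in 4 (18.2%), GGGCGG in 7 (30.5%), TATAA in 2 (24%), TTCNNNGAA in 1 (7.67%) and CACGTG in 0 (5.59%). A match is a description of the letters, and no binding was measured in these tumors. The RT1 genes resemble each other over their length as well, so a probe for 1 of them may have read others, and the haplotype of C6 cells can differ from the reference.

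The signal intensities were deposited without normalization, and levels below are log2 signals, Z-normalized on each array over the probes detected on all arrays and returned to log2 units, so that 0 is the mean of those probes. Mean signal per array was 500.4 to 858 in the MNF group and 708 to 1062 in the vehicle group. The number of detected probes was 8733 to 9562 in the MNF group and 8849 to 9457 in the vehicle group. The lowest mean signal and the lowest number of detected probes both belonged to MNF tumor 1, the tumor in which most of the genes stood apart. Among markers, 8 of 12 macrophage genes, among them Ptprc, Tyrobp and C1qa, and 8 of 12 T and NK cell genes were detected on no array. Immune cells of the host are mouse cells, which rat probes may read in part, so this does not show their absence. The glial genes Vim, Nes, S100b and Sox10 were detected on all 12. Skeletal muscle genes, 6 of 9 detected on some arrays and Mb, Myh4 and Actn3 on none, varied most, with a summed signal of 1475 to 141945 in MNF tumors and 1482 to 57104 in vehicle tumors, and of 1482 to 141945 in cohort 2 and 1475 to 11017 in cohort 1.

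RT1-A1 and RT1-A2, the heavy chains of the classical class I molecules, were far higher in MNF tumor 1 than in any other tumor. The RT1-A1 level was 3.46, 1.08, 1.38, 1.61, 1.27 and 1.60 in MNF tumors 1 to 6 and 1.29, 1.07, 1.00, 1.15, 1.40 and 1.05 in vehicle tumors 1 to 6. Tumors 1 to 3 of each group are of cohort 1 and tumors 4 to 6 of cohort 2. MNF tumor 1 lay 2.20 above the median of the other 11 tumors (4.58-fold), while those 11 spanned 0.61 from the lowest to the highest. RT1-A2 stood at 3.23, 0.87, 0.84, 1.32, 1.04 and 1.34 in the MNF tumors and at 0.83, 0.64, 0.68, 0.88, 0.56 and 0.58 in the vehicle tumors. Here MNF tumor 1 lay 2.38 above the median of the others (5.21-fold), and among the other tumors the groups overlapped only at vehicle tumor 4, which lay just above MNF tumors 2 and 3.

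RT1-T24-4, a class I gene elsewhere in the RT1 complex, had a level of 1.79, 0.07, 0.34, 0.02, 0.05 and -0.09 in the MNF tumors and of 0.08, -0.13, -0.24, 0.12, 0.19 and -0.48 in the vehicle tumors. The value of MNF tumor 1 was 1.74 above the median of the others, and the remaining MNF and vehicle tumors overlapped. RT1-DMa encodes a chain of the class II peptide exchange factor DM. Its level was 0.36 in MNF tumor 1, between -1.79 and -0.98 in the other MNF tumors and between -1.85 and -1.27 in the vehicle tumors. Its partner RT1-DMb was detected on 6 of 12 arrays, and Cd74, the invariant chain of class II, on 0. In MNF tumor 1 RT1-DMb was 0.60 above the median of the others and Cd74 0.71, where the 11437 probes detected on no array were shifted by a median of 0.44 in that tumor. Ctss, the protease that trims the invariant chain, was detected on 4 arrays and lay 1.15 above.

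B2m, the light chain, was the brightest of the 10 genes. Its level was 6.34, 5.49, 5.35, 5.13, 5.18 and 5.10 in the MNF tumors and 5.05, 5.33, 5.11, 5.02, 5.04 and 5.22 in the vehicle tumors. MNF tumor 1 was 1.22 above the median of the others, but this distance was 0.42 after quantile normalization and 0.41 after neqc, a method that corrects background and then equalizes the arrays. Before normalization its B2m signal, 31706, ranked 7 of 12. The size of the B2m difference in that tumor therefore depended on the normalization, from 0.41 after neqc to 1.70 after Z-normalization over all probes.

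The genes of peptide transport and cutting were likewise highest in MNF tumor 1, with 1 exception. Tap1 stood at -0.18, -1.41, -1.31, -1.27, -1.17 and -1.46 in the MNF tumors and at -1.37, -1.52, -1.24, -1.16, -0.96 and -1.31 in the vehicle tumors. Tap2 stood at -0.17, -0.85, -1.11, -0.82, -1.28 and -1.32 in the MNF tumors and at -0.67, -0.97, -0.87, -0.68, -0.62 and -0.73 in the vehicle tumors. Against the median of the other 11, MNF tumor 1 was 1.12 higher in Tap1 and 0.68 higher in Tap2, and Tap2 was otherwise at its lowest in 3 MNF tumors. Psmb8 was 3.27 in MNF tumor 1, 1.81 to 2.21 in the other MNF tumors and 1.91 to 2.74 in the vehicle tumors. Psmb9 was 1.37 in MNF tumor 1, -0.30 to 0.45 in the other MNF tumors and 0.06 to 0.54 in the vehicle tumors, so for both proteasome subunits the remaining MNF tumors lay in or below the range of the vehicle tumors. That exception was Tapbp, tapasin. Its level of -0.83 in MNF tumor 1 ranked 7 of 12, among -1.03 to -0.61 in the other MNF tumors and -1.03 to -0.54 in the vehicle tumors.

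**Figure D1:**
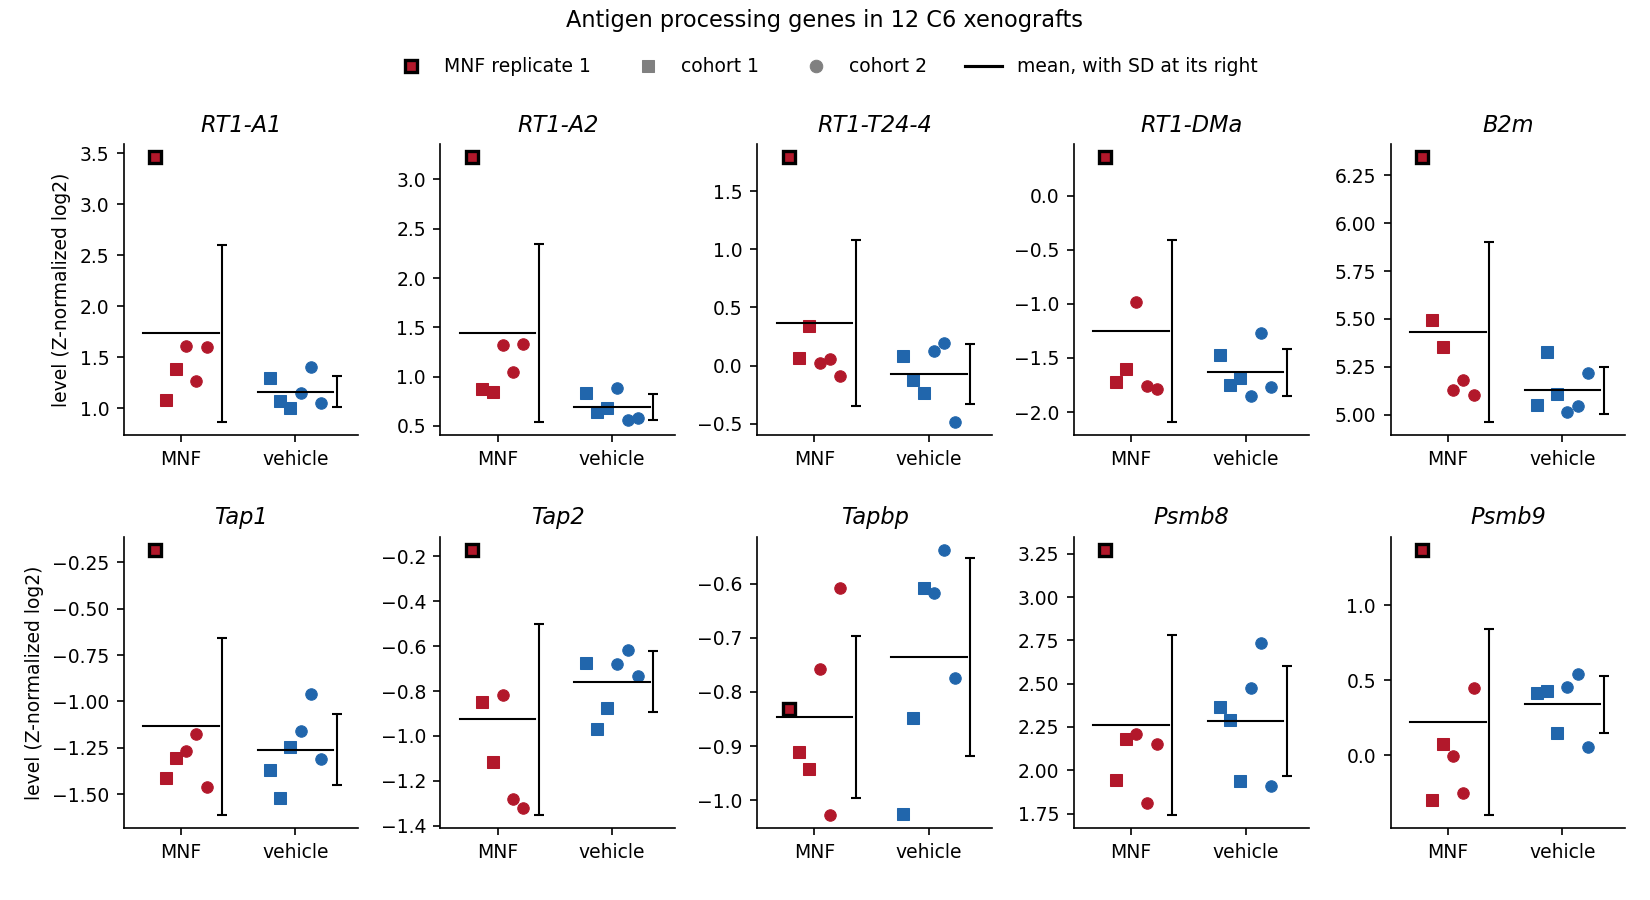
Level of each gene (Z-normalized log2 signal, y axis) in the 6 MNF tumors (red) and the 6 vehicle tumors (blue). Squares are cohort 1, circles are cohort 2, and the square with a black edge is MNF tumor 1. Lines give the mean and bars the SD. MNF tumor 1 lies above the other 11 tumors in 9 of the 10 panels, and in the Tapbp panel it lies among them.

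MNF tumor 1 thus had the highest level of the 12 tumors in 9 of 10 genes. Over all genes tested, 19.5% were highest in this tumor and 18.5% were lowest in it. A level at least 1 log2 unit above the median of the other 11 was reached by 8 of the 10, against 1.64% of all genes. The median distance over the 10 genes was 1.22, against -0.0032 over all genes. With 1 tumor on a side there is no test of this difference, and the genes were listed with the tumor's values known, so it is a description. The mean level over the 10 genes was 1.86 in MNF tumor 1 and 0.37 to 0.71 in the other 11. Without RT1-DMa, 8 of the 9 other genes were highest in MNF tumor 1, 7 lay at least 1 log2 unit above, the median distance was 1.22, and the mean level was 2.03 in MNF tumor 1 and 0.61 to 0.93 in the other 11. Vehicle tumor 5 came next to MNF tumor 1 in Tap1, Tap2, Psmb8 and Psmb9 and was the highest in Tapbp, and the next highest tumor in the 4 RT1 genes and B2m was an MNF tumor.

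Since the array of MNF tumor 1 was dim, the distance was set out under other scales. In the signals as deposited, with no normalization, it was the highest of the 12 in 5 of the 10 genes (RT1-A1, RT1-A2, RT1-T24-4, RT1-DMa and Tap1), although 0.525% of all genes were highest and 83.5% were lowest on that array. The deposited RT1-A2 signal was 4103 in MNF tumor 1, 1269 to 2382 in the other MNF tumors and 1104 to 2022 in the vehicle tumors. On each of 6 other scales, the authors' processed values among them, 9 of the 10 genes were again highest in MNF tumor 1. Of all genes 11.9% to 26.1% were highest there. The median distance of the 10 genes was 1.20 to 1.52. On these scales 6 or 7 of the 10 lay at least 1 log2 unit above, against 1.38% to 2.64% of all genes. Probes detected on no array were shifted upwards by a median of 0.44 in MNF tumor 1 on the scale used here and by 0.0076 after neqc. After neqc the distance was 2.86 for RT1-DMa, 1.58 for Tap1 and 0.95 for Tap2, against 2.08, 1.12 and 0.68 on the scale used here.

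**Figure D2:**
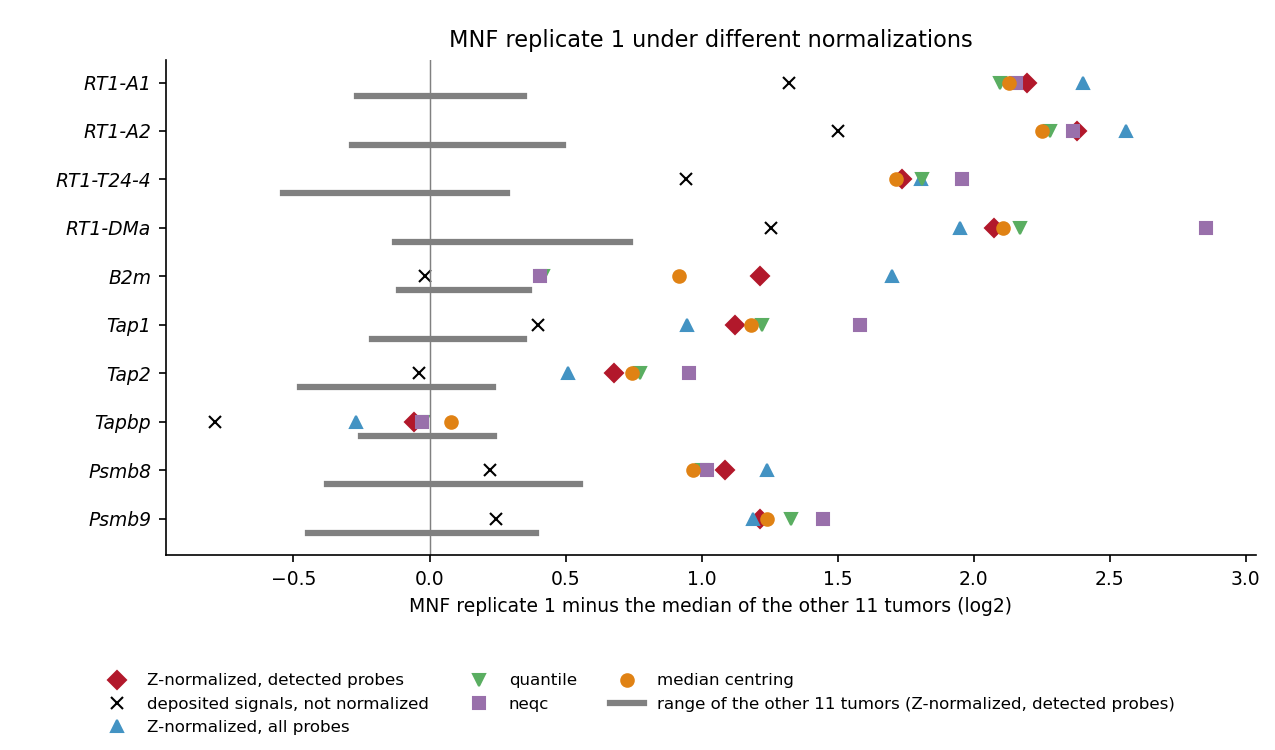
Distance of MNF tumor 1 from the median of the other 11 tumors (log2, x axis) for each gene under 5 normalizations and for the deposited signals (crosses). The grey bars give the range of the other 11 tumors on the scale used in the text. RT1-A1, RT1-A2, RT1-T24-4 and RT1-DMa lie to the right of the bars under every scale drawn, B2m moves from 0.41 to 1.70 between normalizations, and Tapbp lies between -0.27 and 0.08 under the normalizations and at -0.79 in the deposited signals.

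Probes for other class I genes were also high in MNF tumor 1, though each may have read transcripts of other RT1 genes. Of 19 further RT1 class I genes with a probe, 5 were detected on every array and 4 of these were highest in MNF tumor 1, with a median distance of 1.04. RT1-M10-1 was 2.35 in MNF tumor 1 and -0.36 to 0.50 in the others, and RT1-CE15 was 0.62 against -1.35 to -0.87. RT1-S3, the fifth, ranked 2 of 12. RT1-S2 was detected on 11 arrays and had a signal of 1161 in MNF tumor 1, a distance of 3.26 from the median of the other levels, the largest among all the RT1 genes measured. This gene is named for its value, which was seen before it was chosen.

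Among other genes of peptide supply and peptide loading the median distances were smaller, at 0.36 and 0.26, against 1.22 for the 10 genes. Within the 10, Tap2 at 0.68 and Tapbp at -0.06 lay below 1 as well. The interferon-type proteasome subunit Psmb10 was 0.61 above the median of the others, and the proteasome activators Psme1 and Psme2 were 0.43 and 0.47 above. The standard subunits Psmb5 and Psmb7, which these replace or accompany, were 0.46 and 0.36 above, and Psmb6 was 0.12 above. MNF tumor 1 was the highest of the 12 in 5 of 9 genes of peptide supply and the lowest in 1, Tpp2, a cytosolic peptidase, at 0.58 below. Tapbpl, a relative of tapasin, was 0.64 above, and the general chaperones Hspa5, Canx, Pdia3 and Calr were 0.46, 0.26, 0.20 and 0.15 above, Hspa5 as the highest of the 12. In the deposited signals each of these general chaperones was lowest in MNF tumor 1, as were 83.5% of all genes. The distances of this paragraph are given on the scale used here only, and that of a bright gene can depend on it, as in B2m. Genes of these lists are named here for their place in the pathway, with their values known.

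Of 14 interferon-induced genes measured on every array, 9 were highest in MNF tumor 1, with a median distance of 0.53. Irf7, an interferon regulatory factor, was 1.47 above the median of the others, and the chemokine Cxcl10 was 0.58 above. Irf1, which binds class I promoters, was 3.37 in MNF tumor 1 and 1.85 to 2.70 in the other tumors. It and the following gene are named for their values, seen before they were chosen. Cxcl9, a chemokine induced by interferon gamma, was detected on 2 of 12 arrays and lay 1.92 above the median of the others in MNF tumor 1. Among targets of type I interferon, Usp18, Bst2 and Rtp4 were detected on every array and lay 0.58, 0.61 and 0.67 above as the highest of the 12. Mx1 was detected on 4 arrays and lay 0.62 above, and Isg15, Ifit1 and Ifit3 were detected on no array. Probes detected on no array were shifted upwards by a median of 0.44 in that tumor on this scale. The deposited signals of MNF tumor 1 lay within the range of the other tumors, at 203 for Usp18, 189 for Bst2, 389 for Rtp4 and 159 for Mx1. Usp18, Bst2, Rtp4 and Mx1 were also named with their values known. Not highest among the 14 were Trim21, Ifitm1, Lgals3bp, Ifi44 and Ifitm3, which ranked 2, 3, 6, 8 and 11 of 12. The receptor chains Ifngr1 and Ifngr2 ranked 12 and 11 of 12.

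Markers of other cells were not alike in MNF tumor 1. The mean level of 7 glial genes was 1.90 in MNF tumor 1, the lowest of the 12, against 2.02 to 2.79 in the others. Cnp, a myelin enzyme, was 1.45 below the median of the others and Sox10, a glial transcription factor, 0.77 below. Of the macrophage genes detected on all arrays, Cd68 was 0.88 above and Cd14 was 0.25 below, and their mean level was -0.16 in MNF tumor 1, which ranked 2 of 12, against -0.73 to 0.07 in the others. Mrc1, detected on 10 arrays, was 0.74 above. Deposited signals of the 12 macrophage genes summed to 2141 to 3141 in MNF tumors and 2714 to 3875 in vehicle tumors, not normalized. MNF tumor 1, on the dimmest array, was at the low end. Deposited signals of the 12 T and NK cell genes summed to 1456 in MNF tumor 1. They summed to 1369 to 1502 over the MNF tumors and to 1420 to 1890 in the vehicle tumors. On the normalized scale 11 of the 12 macrophage genes, detected or not, were highest in MNF tumor 1, with a median distance of 0.50. So were all 12 T and NK cell genes (0.42), all 5 MHC class II genes (0.64), all 6 endothelial genes (0.40) and all 4 dendritic cell genes (0.39). Among fibroblast genes 2 of 7 were highest there, and among glial genes 2 of 10. Of the probes detected on no array, 98.4% were highest in that tumor, with the median shift of 0.44. Cd3d and Klrd1, each detected on 1 array, were 1.08 and 0.96 above, while Cd8a, Cd4, Lck and Nkg7 were detected on none. Hemoglobin genes ranked 2 of 12 in MNF tumor 1 and skeletal muscle genes 6 of 12. The part of any of these in the class I levels was not tested.

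**Figure D3:**
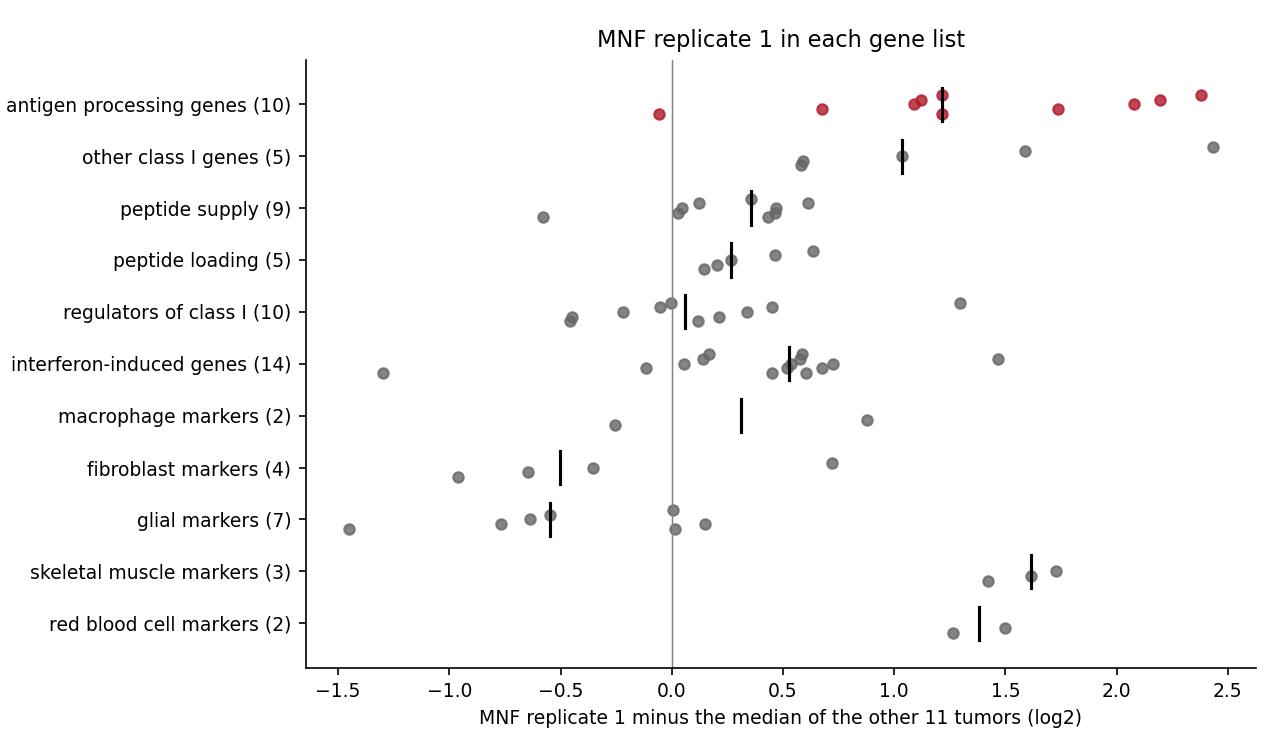
Distance of MNF tumor 1 from the median of the other 11 tumors (log2, x axis) for every gene of each list detected on all arrays, with the number of genes in brackets and the median of the list as a black line. The antigen processing genes (red) have a median of 1.22 and the other class I genes of 1.04, while the interferon-induced genes have 0.53 and the glial markers lie mostly below 0.

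MNF was then compared with vehicle over all 12 tumors, with cohort as a covariate in limma. None of the 10 genes passed an adjusted p of 0.05 (Benjamini-Hochberg over all genes), nor did any of the 7620 tested (0%). The lowest adjusted value over all of them was 0.499. An unadjusted p under 0.05 was reached by 609 genes (7.99%) and by 1 of the 10, RT1-A2. Its level was 1.44 ± 0.90 in MNF tumors and 0.70 ± 0.13 in vehicle tumors (SD, n = 6 each), a log2 difference of 0.74 (SE 0.32, limma adjusted p = 0.61). The difference was above 0 for 6 of the 10 genes, all 4 RT1 genes, B2m and Tap1 (5 of 9 without RT1-DMa), and below 0 for Tap2, Tapbp, Psmb8 and Psmb9. Over all genes 50.2% were above 0. None of the 10 genes had groups without overlap over all 12 tumors, a pattern found higher in MNF in 0.21% and lower in MNF in 0.249% of all genes. No muscle or blood gene passed the adjusted p either. Myl1, Tnnc2 and Hbb were 1.86, 1.97 and 1.29 higher in MNF tumors at an unadjusted p under 0.05 (limma adjusted p = 0.61 each), Acta1 differed by 1.66 (limma adjusted p = 0.73), and Olig1, a glial factor, was 0.75 lower at an unadjusted p under 0.05 (limma adjusted p = 0.50). Their part in these differences was not tested.

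Much of this rested on MNF tumor 1. Without it the difference was 0.21 for RT1-A1 (0.57 with it), 0.16 for RT1-T24-4 (0.44), 0.06 for RT1-DMa (0.38) and 0.14 for B2m (0.31), and Tap1 turned to -0.08 (0.13). The differences of the lower genes grew, to -0.32 for Tap2 (-0.17 with it), -0.35 for Psmb9 (-0.12) and -0.23 for Psmb8 (-0.02). For RT1-A2 the difference was then 0.37, with a smaller error (SE 0.11, limma adjusted p = 0.58). Then 3 of the 10 genes were at an unadjusted p under 0.05, RT1-A2 higher and Tap2 and Psmb9 lower, against 7.1% of all genes, and none passed the adjusted p (0% of all genes). In the 11 tumors 5 of the 10 differences were above 0, against 50.6% of all genes.

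**Figure D4:**
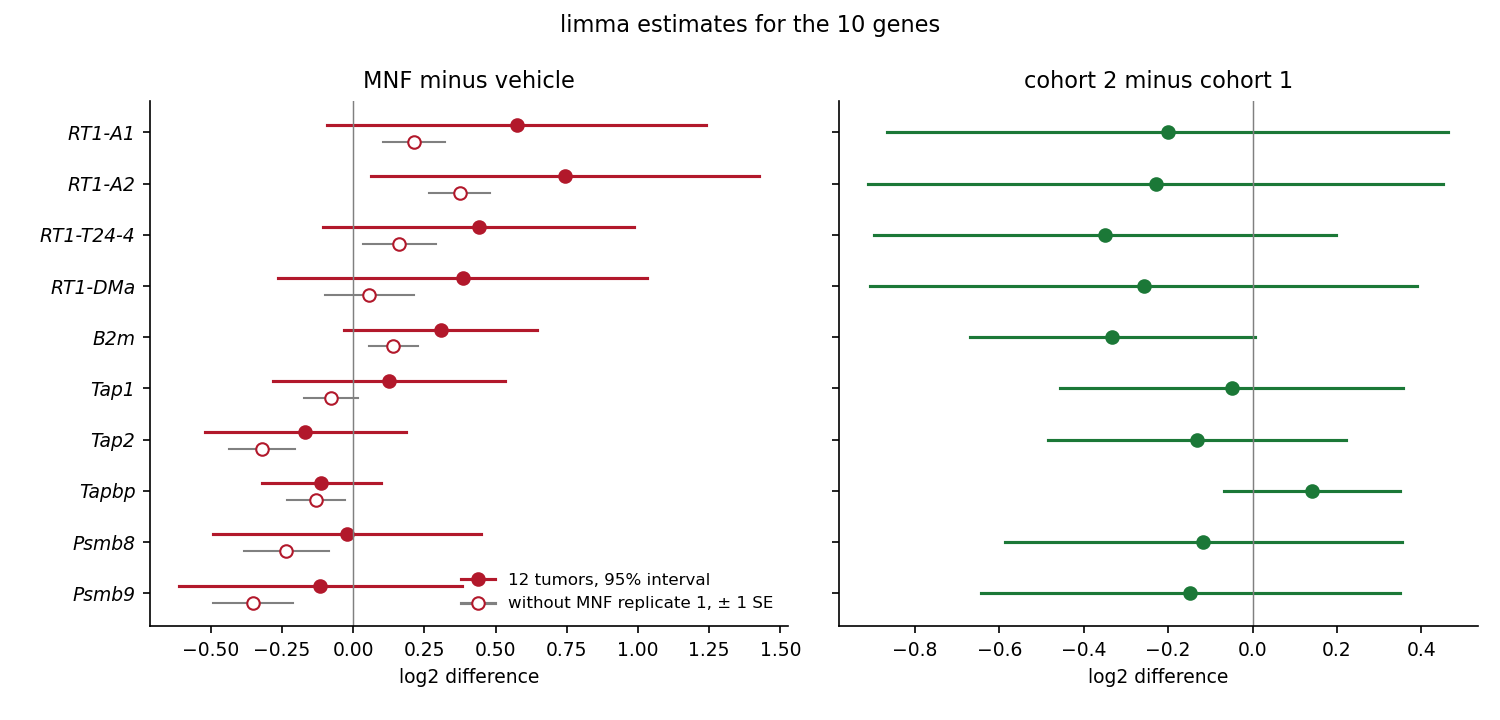
Left, log2 difference of MNF minus vehicle for each gene over 12 tumors (filled, with the 95% interval of limma) and without MNF tumor 1 (open, with 1 SE). Right, log2 difference of cohort 2 minus cohort 1 with its 95% interval. Only the RT1-A2 interval on the left (0.06 to 1.43) lies clear of 0.

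RT1-A2 was the 1 gene of the 10 whose groups did not overlap within either cohort. In cohort 2 it was 1.32, 1.04 and 1.34 in MNF tumors and 0.88, 0.56 and 0.58 in vehicle tumors. In cohort 1 it was 3.23, 0.87 and 0.84 in MNF tumors and 0.83, 0.64 and 0.68 in vehicle tumors, where MNF tumor 3 and vehicle tumor 1 nearly touched. A gene higher in MNF without overlap in both cohorts was found in 0.407% of all genes (31 of 7620). RT1-A1, its near copy, overlapped in both cohorts. In the model of 4 groups the RT1-A2 difference was 0.56 in cohort 2 (adjusted p = 0.71) and 0.93 in cohort 1 (adjusted p = 0.65), and 0.14 in cohort 1 without MNF tumor 1.

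Within cohort 2 Tap2 was lower, at -0.82, -1.28 and -1.32 in MNF tumors and -0.68, -0.62 and -0.73 in vehicle tumors, with a difference of -0.46 (SE 0.21, limma adjusted p = 0.49). It was the 1 gene of the 10 at an unadjusted p under 0.05 there, against 10.1% of all genes, and groups that did not overlap, lower in MNF, were found in 7.1% of all genes (6.38% for higher in MNF, as in RT1-A2). The difference was below 0 for 5 of the 10 genes, against 52% of all genes. Without MNF tumor 1, which leaves these 6 tumors as they are but narrows the shared spread, RT1-A2 and Tap2 were at an unadjusted p under 0.05, against 11.5% of all genes, with adjusted p of 0.34 and 0.35. Within cohort 1 B2m was higher, at 6.34, 5.49 and 5.35 in MNF tumors and 5.05, 5.33 and 5.11 in vehicle tumors, a difference of 0.57 (SE 0.21, limma adjusted p = 0.65). Over 19 alternatives of scale, filter, fit and tumors this B2m difference ran from 0.22 to 0.82. Groups that did not overlap, higher in MNF, were found in 7.93% of all genes in this cohort, and in RT1-A2 and B2m of the 10. RT1-T24-4 was the other gene at an unadjusted p under 0.05 there (0.83, limma adjusted p = 0.65), against 7.51% of all genes, and 9 of the 10 differences were above 0, against 50.1%. Without MNF tumor 1 these were 0.26 for B2m and 0.30 for RT1-T24-4, 5 of the 10 differences were above 0 (50.1% of all genes), and 0 of the 10 genes were at an unadjusted p under 0.05, against 3.83% of all genes. No gene passed the adjusted p within either cohort (0%).

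The MNF difference, with its sign, was lower in cohort 2 than in cohort 1 for all 10 genes by its point value, with a median of -0.54 for cohort 2 minus cohort 1. In size it was greater in cohort 2 for Tap2, Tapbp, Psmb8 and Psmb9, which were below 0 there. None of the 10 passed the test of the difference between cohorts itself (smallest adjusted p among the 10, 0.54 for Tap2), and 0 of the 10 were at an unadjusted p under 0.05, against 9.33% of all genes. Over all genes 53% were below 0, and 0% passed the adjusted p. Without MNF tumor 1, which is of cohort 1, 4 of the 10 turned to a higher signed difference in cohort 2, against 47.8% of all genes above 0. For RT1-A2 it was then 0.42 (SE 0.19, limma adjusted p = 0.65), the 1 gene of the 10 at an unadjusted p under 0.05, against 7.44% of all genes.

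Between cohorts, with treatment as a covariate, 9 of the 10 genes were lower in cohort 2 by point value, against 50% of all genes, and 0 were at an unadjusted p under 0.05, against 7.65% of all genes. None of the 7620 genes passed the adjusted p (0%). The greatest difference relative to its error was that of B2m, 5.11 ± 0.08 in cohort 2 and 5.45 ± 0.47 in cohort 1 (SD, n = 6 each), at -0.33 (SE 0.16, limma adjusted p = 0.65). Over 25 alternatives it ran from -0.59 to -0.070. Without MNF tumor 1 the direction turned in 7 genes, so that 8 of the 10 lay above 0 (50.6% of all genes), B2m was at -0.17, and 0 were at an unadjusted p under 0.05, against 7.77% of all genes. In vehicle tumors alone the direction turned in 7 of the 10 genes, to at most 0.23 in Tap1, followed by 0.18 in Psmb8 (limma adjusted p = 0.99 each). Muscle genes were 3.13 to 3.40 higher in cohort 2 (Acta1, Myl1 and Tnnc2, adjusted p of 0.52 to 0.60), and their part in these values was not tested.

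The rest of the pathway was compared in the same fit, over lists of related genes. Of 5 peptide loading chaperones, 2 were higher in MNF at an unadjusted p under 0.05, the chaperone Hspa5 (0.38, limma adjusted p = 0.499) and Calr (0.27, limma adjusted p = 0.61), and Hspa5 and Canx were lower in cohort 2 (-0.37 each). Of 9 peptide supply genes, Psmb6 (-0.28) and Tpp2 (-0.24) were lower in MNF at that level and none was higher. Of 10 regulators, Jak2 was higher (0.26), and of 14 interferon-induced genes 0 were at that level for MNF and Cxcl10 (-0.41) and Irf7 (-0.66) were lower in cohort 2. Of the 5 other class I genes measured on every array, 0 were at that level in either comparison. Over all genes 7.99% were at that level for MNF and 7.65% between cohorts, and no gene of these lists passed the adjusted p.

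Across tumors the levels of the 10 genes varied together mainly through 1 tumor. Over 12 tumors the median Pearson r of the 45 pairs was 0.73 and the median Spearman rho 0.26, and 14 pairs passed an adjusted permutation p of 0.05 by r and 0 by rho. The genes were listed with the values of MNF tumor 1 known, so this count is a description. Pairs of other genes were not examined for comparison. Without MNF tumor 1 the median r was 0.11 and the median rho 0.17, and 0 pairs passed by either. The median r of the 36 pairs without RT1-DMa was 0.73, and 0.093 without MNF tumor 1 as well. Without the 2 tumors farthest from the median of the first gene of a pair, the median r was 0.086. Within cohort 2 the median r was 0.17 and within cohort 1, which holds MNF tumor 1, it was 0.89. Psmb8 and Psmb9 had the highest rho over the 12 tumors, 0.79.

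A few pairs kept a high value in the other 11 tumors. Psmb8 and Psmb9, which are built into the same proteasome, had r = 0.80 and rho = 0.73 over 11 tumors (permutation p = 0.0032 and 0.015, adjusted over 45 pairs 0.14 and 0.33), r = 0.77 without the 2 farthest tumors, and r = 0.82 in cohort 2 and 0.96 in cohort 1. RT1-A1 and RT1-A2 had r = 0.73 and rho = 0.50 over 11 tumors (permutation p = 0.011 and 0.12, adjusted 0.26 and 0.48), and r = 0.62 without the 2 farthest tumors. B2m and Psmb9 ran opposite, with r = -0.61 and rho = -0.73 over 11 tumors (permutation p = 0.047 and 0.015, adjusted 0.53 and 0.33), but r was 0.56 with MNF tumor 1 and -0.39 without the 2 farthest tumors. RT1-A2 and Tap2 also ran opposite in the 11 tumors, with r = -0.54 and rho = -0.51 (permutation p = 0.087 and 0.12, adjusted 0.58 and 0.48), but r was 0.49 with MNF tumor 1 and -0.31 without the 2 farthest tumors.

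**Figure D5:**
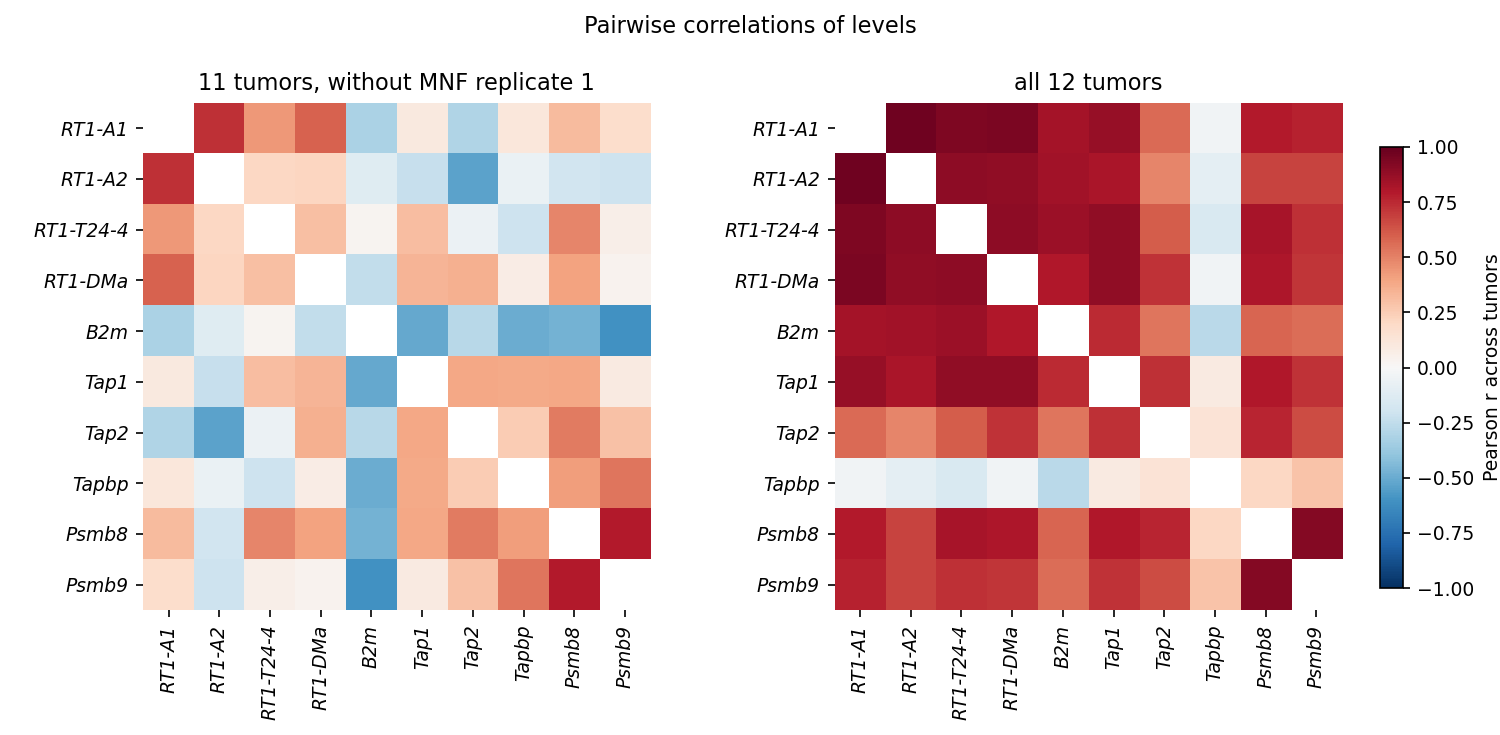
Pearson r across tumors for each pair of the 10 genes, without MNF tumor 1 (left) and over all 12 tumors (right), from -1 in blue to 1 in red. The right panel is red outside the Tapbp row, with a median of 0.73, and the left panel is pale or mixed with a median of 0.11, with Psmb8 and Psmb9 as its darkest pair.

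Named genes outside the 10 whose level followed their mean most closely over the 12 tumors were RT1-M10-1 (r = 0.97), RT1-CE15 (0.96), Rars2 (0.96), Plbd1 (0.95), Fermt3 (0.95), Ptgr1 (0.94), Vamp8 (0.94), Hhatl (0.94), Gfod2 (0.94) and Prpf31 (0.94). Plbd1 and Ptgr1 were 2.63 and 2.59 above the median of the others in MNF tumor 1. Without that tumor the r of these 10 genes lay between 0.29 for Hhatl and 0.65 for RT1-M10-1. The RT1 probes among them may have read other RT1 genes.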

How the data were processed

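Illumina RatRef-12 arrays measured total RNA of 12 tumors, 1 array each. Per the labels, GenomeStudio 1.6.0 was used upstream, and the authors deposited a signal intensity with its detection p-value per probe (22517 probes, not normalized). A Z-normalized score table by the authors served as an alternative. Platform annotation named 13259 probes and left 9258 unnamed here, and its symbols can be old.

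Kept were the 7677 probes with a detection p under 0.02 on all arrays and, for each gene, the brightest, which left 7620 rows (5510 named). Each array's log2 signals were Z-scored and rescaled by the mean SD of the arrays. limma 3.58.1 (R 4.3.3) fitted treatment and cohort together, and then 4 groups, with Benjamini-Hochberg adjustment over all rows and calls at 0.05. Correlation p values came from 100000 permutations drawn with numpy 2.4.6, and scipy 1.17.1 gave the ranks for rho. The script was tested on simulated data. Genes, lists and rules were chosen with earlier results of these data known, and the motifs partly after the promoters were seen. The rule named all 10 genes, up to 4 genes of each list by smallest p, and the 10 genes most like the mean, and other names were chosen with their values known. Alternatives changed the scale, the filter, the covariate, the block, the weights or the tumors used. Groups came from the labels, which number replicates but name no animals, so limma p values set a difference against the spread between these tumors.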

Additional observations from a re-analysis of the deposited data

Results flagged for a closer look

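MNF tumor 1 lay far from the other 5 MNF tumors in 6 genes. Its gap to the nearest of them, as a share of the range of the 6, was 0.776 for RT1-A1, 0.794 for RT1-A2, 0.772 for RT1-T24-4, 0.683 for B2m, 0.774 for Tap1 and 0.724 for Psmb8, each past the limit of Dixon's rule. Of 20 groups examined (10 genes in MNF and in vehicle tumors), no vehicle group was marked. Chance marks about 1 in 20 groups that were not chosen by their values. That rate cannot be read here, because the genes were listed with the values of this tumor known and the 6 share 1 tumor, so the shares are a description and no test.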

How the results depend on the processing

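No gene of the 10 was called under any alternative. Of their log2 differences under alternatives, 1004 kept their direction and 46 turned, all of them without passing the test. Psmb8, MNF against vehicle, turned to 0.0177 (Z-normalization over all probes, and with no filter) and 0.0168 (the authors' values). Between cohorts, Tap1 turned to 0.0773 with array weights, and in vehicle tumors alone RT1-A1 turned to 0.0795, RT1-T24-4 to 0.0371, RT1-DMa to 0.00518, Tap1 to 0.234, Tap2 to 0.163, Psmb8 to 0.176 and Psmb9 to 0.0201. Within cohort 2 B2m turned to -0.0131 (quantile) and -0.0760 (median centring), and within cohort 1 Tapbp turned to 0.00694 (median centring). The difference between cohorts for Tapbp turned to 0.00997 (all probes, and no filter) and 0.0103 (the authors' values). The median distance of MNF tumor 1 became 1.47 (all probes), 1.52 (neqc) and 1.46 (the authors' values), and the median correlation 0.11 without that tumor. The cause was not tested. Leaving out RT1-DMa, chosen after seeing the data, gave a median distance of 1.22 and a median correlation of 0.73.

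With 1 tumor left out, for MNF against vehicle, Tap1 ran from -0.0793 to 0.20, Psmb8 ran from -0.23 to 0.0896 and Psmb9 ran from -0.35 to 0.0173. With 1 tumor left out, for cohort 2 against cohort 1, RT1-A1 ran from -0.37 to 0.16, RT1-A2 ran from -0.39 to 0.14, RT1-DMa ran from -0.39 to 0.0700, Tap1 ran from -0.12 to 0.16, Tap2 ran from -0.19 to 0.0201, Psmb8 ran from -0.23 to 0.0942 and Psmb9 ran from -0.28 to 0.0895. With 1 tumor left out, for the MNF difference in cohort 1, RT1-DMa ran from -0.0243 to 1.01, Tap2 ran from -0.14 to 0.33, Psmb8 ran from -0.13 to 0.53, Psmb9 ran from -0.44 to 0.39 and Tapbp ran from -0.17 to 0.0413. With 1 tumor left out, for the MNF difference in cohort 2, RT1-DMa ran from -0.14 to 0.30 and RT1-T24-4 ran from -0.16 to 0.18. With 1 tumor left out, for the difference between cohorts, RT1-A1 ran from -1.01 to 0.18, RT1-A2 ran from -0.77 to 0.42, RT1-DMa ran from -0.89 to 0.15, Psmb9 ran from -0.68 to 0.16 and Tapbp ran from -0.20 to 0.0278. The lowest or highest of most ranges came without MNF tumor 1, as the report gives.

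For RT1-A2, MNF against vehicle, the adjusted p ran from 0.42 to 0.92 over 24 alternatives. The B2m difference of MNF against vehicle ran from 0.099 to 0.44 over 24 alternatives. The count of all genes called, 0 in each comparison, became 31 between cohorts with array weights and 46 without vehicle tumor 4, 171 within cohort 2 and 50 for the difference between cohorts without vehicle tumor 6, and 1 within cohort 1 when fitted alone or without vehicle tumor 4. With a replicate block, RT1-A2 kept its difference of 0.74 (limma adjusted p = 0.62), 2 of the 10 genes, RT1-A1 and RT1-A2, were at an unadjusted p under 0.05, and 0 were called. Deviations of same-numbered tumors correlated between -0.19 and 0.38, above 0.1 in 2 of 6 pairs, so the numbers were not taken to pair the tumors. Dim signals limit RT1-DMa, Tap1, Tap2 and Tapbp.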
